A study of Homo sapiens with 12 samples.

Results

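The genes described here are 10 genes of the integrated stress response around the transcription factor ATF4, namely ATF4, ATF3, DDIT3, TRIB3, CHAC1, SESN2, DDIT4, ASNS, PSAT1 and PHGDH, out of 32973 genes listed in the tables of unique molecular identifiers (UMIs). They were chosen by name, and every symbol matched a single Ensembl identifier in the tables. In LAST-seq, T7 transcription amplifies RNA molecules directly in single cells without prior reverse transcription, and each UMI counts a captured molecule at its 3′ end. WT eHAP1 cells, a haploid human line grown in IMDM with serum, were compared with SCC4 KO cells of the same line, in 2 batches of each genotype with 73 and 75 WT cells and 77 and 76 KO cells. SCC4, listed as MAU2, is a subunit of the loader that places cohesin on DNA, and the KO was made by Cas9 cutting followed by expansion from single cells. The methods describe sorted cells as expanded from a single cell, and whether the KO batches came from 1 clone or several was not stated in the sources used here. The eHAP1 cells of both genotypes were sorted as live, haploid, G1-phase cells after trypsin, and the haploid state was kept with 10-Deacetylbaccatin-III. HEK293T, a human embryonic kidney line grown in DMEM with serum, was not edited and was sorted for live cells. It was profiled in pools of 10 wells, with 2 LAST-seq pools of cells (replicate 1 with A60 spike-ins and replicate 2 with ERCC spike-ins), 1 LAST-seq pool each of lysate and of 15 pg total RNA, 2 CEL-seq2 pools of cells and 1 of lysate. Whether pools or batches came from separate cultures was not stated, so their spread may be technical.

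In the integrated stress response, kinases that sense amino acid shortage, unfolded proteins, heme loss or viral RNA phosphorylate the translation factor eIF2, which lowers protein synthesis in general while the ATF4 mRNA is translated more. ATF4 then binds C/EBP-ATF response elements and raises genes for amino acid synthesis and uptake, for redox balance and for stopping growth. ATF4 is thus controlled in large part at translation, so its RNA level is not a measure of its protein.

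The 3 transcription factors lie at chr22:39519695-39522683 (ATF4, plus strand), chr1:212565334-212620777 (ATF3, plus strand) and chr12:57516588-57521737 (DDIT3, which encodes CHOP, minus strand) on GRCh38. The feedback and effector genes are TRIB3 (chr20:362835-397559), CHAC1 (chr15:40952962-40956512), SESN2 (chr1:28259518-28282491) and DDIT4 (chr10:72273919-72276036), all on the plus strand. The amino acid synthesis genes are ASNS (chr7:97851677-97872542, minus strand), PSAT1 (chr9:78297125-78330093, plus strand) and PHGDH (chr1:119648411-119744218, plus strand). All 10 are protein-coding, and UMIs were counted in their exons.

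All 10 genes had promoter windows in RefSeq (GRCh38.p14), 16 windows in all, each reaching from 250 bases before to 50 bases after an annotated start. The core of the C/EBP-ATF response element, TGATGNAA, was searched on both strands and was present in 3 of these windows, those of ATF3, CHAC1 and ASNS, against 3.62% of all 35116 promoter windows. The related motif TGACGTNA was in none of the 16 windows and in 3.01% of all windows. The 3 windows are shown since they hold the letters that ATF4 dimers are known to bind, with the match in capitals; in CHAC1 the match reads TTGCATCA, which is the motif on the opposite strand. The match began 191 bases before the start in ATF3 (chr1:212565157-212565456, plus strand), 209 bases before it in CHAC1 (chr15:40953221-40953520, plus strand) and 68 bases before it in ASNS (chr7:97872359-97872658, minus strand).
ATF3: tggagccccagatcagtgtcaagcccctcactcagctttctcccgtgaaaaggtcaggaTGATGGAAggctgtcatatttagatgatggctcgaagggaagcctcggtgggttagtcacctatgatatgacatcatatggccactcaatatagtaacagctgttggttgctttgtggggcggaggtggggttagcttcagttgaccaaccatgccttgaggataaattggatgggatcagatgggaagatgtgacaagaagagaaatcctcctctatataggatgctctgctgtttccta
CHAC1: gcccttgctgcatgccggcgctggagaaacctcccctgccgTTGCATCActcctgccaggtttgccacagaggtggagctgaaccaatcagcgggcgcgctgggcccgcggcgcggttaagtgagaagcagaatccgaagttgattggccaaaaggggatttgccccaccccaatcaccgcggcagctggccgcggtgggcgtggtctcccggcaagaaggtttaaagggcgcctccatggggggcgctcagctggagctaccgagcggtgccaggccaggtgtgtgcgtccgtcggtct
ASNS: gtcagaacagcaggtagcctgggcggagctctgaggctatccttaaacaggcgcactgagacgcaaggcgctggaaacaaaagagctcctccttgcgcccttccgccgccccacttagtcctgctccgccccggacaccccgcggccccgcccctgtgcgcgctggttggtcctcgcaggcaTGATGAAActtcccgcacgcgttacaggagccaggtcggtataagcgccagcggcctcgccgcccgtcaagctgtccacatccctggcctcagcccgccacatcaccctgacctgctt
A match of letters is a description of the window, and binding was not measured here.

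The eHAP1 pools held between 6434247 and 12301326 UMIs, and the HEK293T pools between 798047 and 1554129. In WT batch 2, 2 cells held 926415 and 649690 UMIs, 7.53% and 5.28% of the pool, against a median of 143882 for that batch. The 4 eHAP1 pools shared 70 to 75 of their well barcodes with each other, and no pair of wells in any pair of pools held identical UMIs. Levels are given in CPM, the UMIs of a gene per 1000000 UMIs of its pool or cell. MAU2, the targeted gene, stood at 44.2 and 41.2 CPM in WT batches 1 and 2 and at 9.17 and 14.5 in KO batches 1 and 2, lower in all 4 pairs of batches. Markers of blood cells, the origin of the haploid line, were near 0 in every pool, with at least 4 of the 6 genes at 0. The list of 7 kidney and neuronal markers fixed for HEK293T summed to 35.8 and 27.8 CPM in the LAST-seq HEK293T cells. In WT eHAP1 cells it summed to 90.8 and 93.2, so its sum does not mark HEK293T here. The genes of the list went separate ways. NEFL (29.5 and 9.94 against 0 in both WT batches) was higher in HEK293T. EYA1 (0.702 and 1.32 against 0 and 0.081) held fewer than 3 UMIs in each of these pools. ENO2 (2.11 and 7.29 against 59.3 and 57.6), PAX2 and INA were higher in WT eHAP1 cells. LHX1 overlapped and NEFM had no UMI in either.

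The UMIs of eHAP1 cells carry the marks of an adjustment between batches, which limits what the batches can show. Over the 1426 genes with at least 2000 UMIs in WT cells, the median squared difference between batches was 0.447 times that of counting error alone, and it was 0.136 times over 1303 genes in KO cells, against 16.8 times over 168 genes between the 2 LAST-seq pools of HEK293T cells. Within a batch, counts also skipped values. Among genes with at least 5 cells at 1 UMI and at least 5 at 3 or more, no cell held 2 UMIs for 37.0% and 65.0% of genes in WT batches 1 and 2, and for 62.2% and 43.0% in KO batches 1 and 2. The methods of the study name ComBat-seq, a batch adjustment of counts, for the eHAP1 cells. The close agreement of batches below is therefore not an estimate of error, p-values from these batches are too small, and the ratios are given as descriptions. An exact two-sided permutation test of 2 against 2 batches cannot go below p = 0.333.

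ATF4 was higher in SCC4 KO than in WT cells, TRIB3, CHAC1 and DDIT4 were lower, and the amino acid synthesis genes went separate ways. Of the 10 genes, 9 reached the minimum mean of 0.1 UMI per cell. A gene was called changed when the ratio of CPM passed 2-fold in the same direction in all 4 pairs of a KO with a WT batch. By that rule DDIT4 was lower and no gene was higher, beside 3.99% of the 15574 genes tested called lower and 4.57% called higher. The median log2 ratio of the 9 genes was -0.48, and that of all genes tested was 0.05.

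Among the transcription factors, ATF4 stood at 180.3 and 183 CPM in WT batches 1 and 2 (95% Poisson intervals of 171 to 190.3 and 176 to 191) and at 329 in both KO batches (315 to 343 and 319 to 339). The KO batches lay above the WT batches, by 1.79-fold to 1.82-fold over the 4 pairs, which is short of the 2-fold threshold. Reads of ATF4 can also match its processed copies ATF4P1 to ATF4P4, which held 39.3 and 46.8 CPM in WT and 78.3 and 78.6 in KO batches. With those UMIs added to ATF4, the mean log2 ratio was 0.86, against 0.85 without them. ATF3, an early stress factor and repressor, stood at 9.36 and 8.45 CPM in WT and at 5.44 and 6.51 in KO batches. Its WT batches lay above its KO batches by 1.30-fold to 1.71-fold. The counting intervals of ATF3 overlapped in all 4 pairs, with 7.28 to 11.8 and 6.91 to 10.2 in WT and 3.79 to 7.57 and 5.13 to 8.15 in KO. DDIT3, the factor that links prolonged stress to cell death, stood at 16.1 and 9.59 in WT and at 15.1 and 14.7 in KO batches, so the genotypes overlapped. The 2 deepest cells of WT batch 2 held 12 and 20 of its 118 DDIT3 UMIs.

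**Figure D1:**
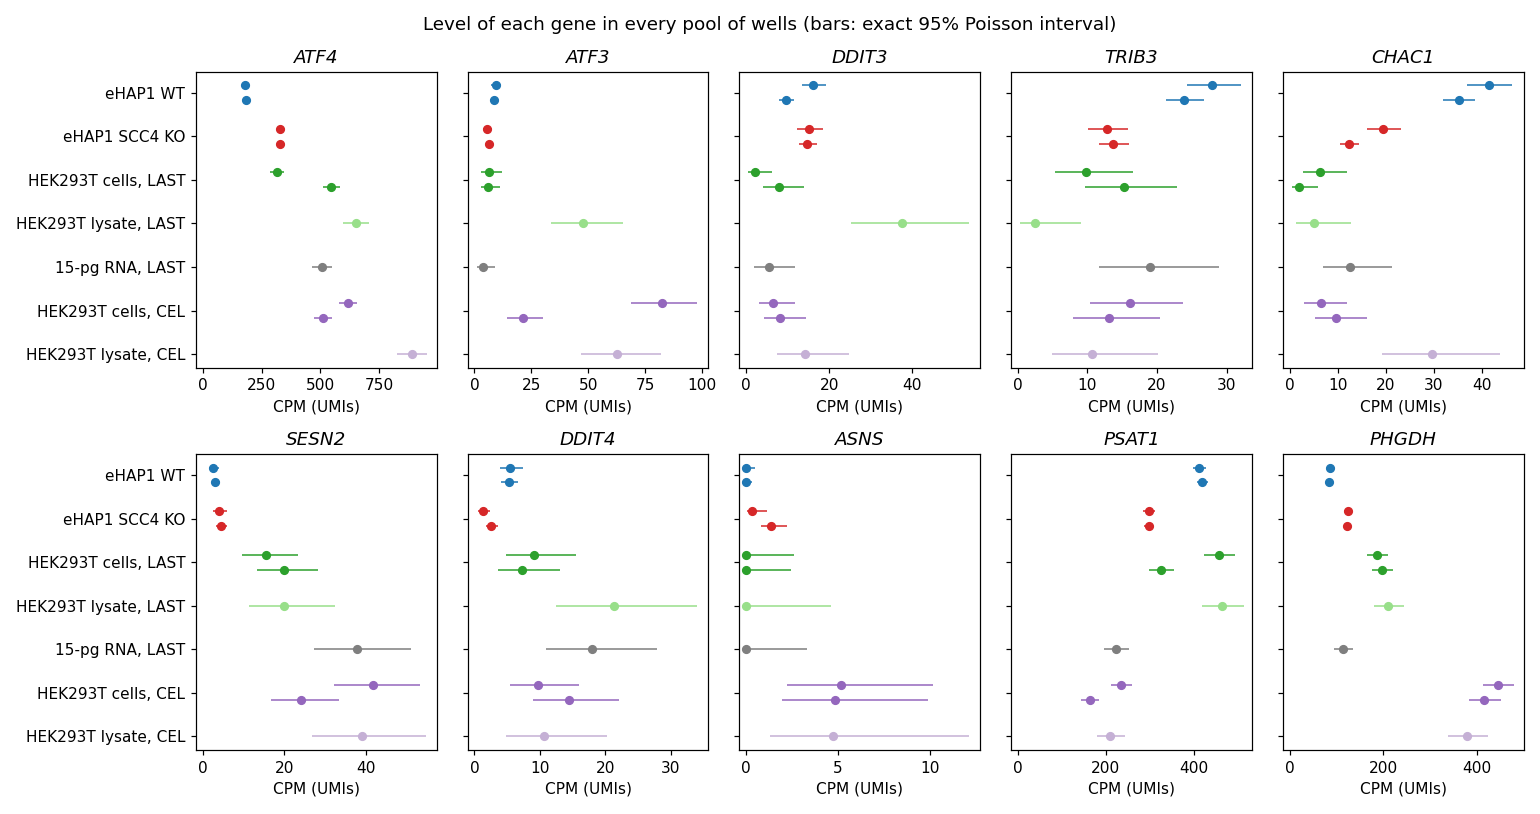
Level of each of the 10 genes (x axis, CPM) in every pool of wells (y axis), with exact 95% Poisson intervals that cover counting error only. ATF4 lay at 180.3 and 183 in WT and at 329 in both KO eHAP1 batches, ATF3 reached 82.4 in a CEL-seq2 pool of HEK293T cells, and ASNS was at 0 in WT eHAP1 cells and in all LAST-seq pools of HEK293T.

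Of the feedback and effector genes, TRIB3, a pseudokinase that inhibits AKT and ATF4 itself, stood at 27.9 and 23.9 CPM in WT and at 12.7 and 13.7 in KO batches. It was lower in KO in all 4 pairs, by 1.74-fold to 2.19-fold. CHAC1, which degrades glutathione, stood at 41.4 and 35.1 in WT and at 19.4 and 12.3 in KO batches, and was lower in KO by 1.80-fold to 3.35-fold. The lowest of these 4 ratios of CHAC1 came from KO batch 1 against WT batch 2. Without KO batch 1, CHAC1 and DDIT4 were both called lower; without WT batch 2, TRIB3, CHAC1 and DDIT4 were; and with only batches of the same number compared, a rule chosen after seeing the data, CHAC1 and DDIT4 were. DDIT4, which restrains the growth kinase mTORC1, stood at 5.43 and 5.28 CPM in WT and at 1.24 and 2.57 in KO batches, and was lower by 2.04-fold to 4.16-fold. These values rest on 40 and 65 UMIs in WT and on 8 and 30 UMIs in KO cells. SESN2, which senses leucine and likewise restrains mTORC1, stood at 2.58 and 3.09 in WT and at 4.04 and 4.45 in KO batches, where it was higher by 1.32-fold to 1.70-fold. Its counting intervals overlapped in all 4 pairs, with 1.55 to 4.03 and 2.19 to 4.24 in WT and 2.64 to 5.92 and 3.33 to 5.84 in KO batches.

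The 3 amino acid synthesis genes did not move together. PSAT1, the second enzyme of serine synthesis, stood at 412 and 419.7 CPM in WT and at 298 and 297 in KO batches, and was lower by 1.38-fold to 1.41-fold. PHGDH, the enzyme that commits a glycolytic intermediate to serine synthesis, stood at 86.4 and 84.0 in WT and at 125 and 124 in KO batches, where it was higher by 1.43-fold to 1.49-fold. PHGDH and PSAT1 thus lay on opposite sides of WT although they act in the same pathway. ASNS, which makes asparagine, had no UMI in the 148 WT cells and 2 and 16 UMIs in KO batches 1 and 2. At the floor of 3 UMIs over the WT cells, ASNS was at least 6.52-fold higher in KO cells, but with a mean under 0.1 UMI per cell it was not tested. That limit rests on KO batch 2, without which the 2 UMIs left lie under the floor, and it was 4.07-fold without WT batch 1 and 2.44-fold without WT batch 2. The level of ASNS is uncertain in all pools, since 97.8% of the last 500 bases of its exons are shared on the same strand with the readthrough gene ENSG00000284707, which held 7 UMIs in all pools together.

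edgeR's quasi-likelihood test with Benjamini-Hochberg adjustment over all genes gave adjusted p-values under 0.05 for 5 of the 9 genes tested. ATF4 (4.3e-05) and PHGDH (3.6e-04) were higher in KO, beside 12.6% of all genes, and TRIB3 (0.0024), CHAC1 (0.0011) and PSAT1 (2.9e-04) were lower, beside 15.8% of all genes. ATF3 (0.28), DDIT3 (0.72), SESN2 (0.60) and DDIT4 (0.12) were not. CHAC1 had an adjusted p above 0.05 without WT batch 1, when TRIB3, PSAT1, PHGDH and ATF4 were called. No change is read from these values, given the adjustment between batches.

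**Figure D2:**
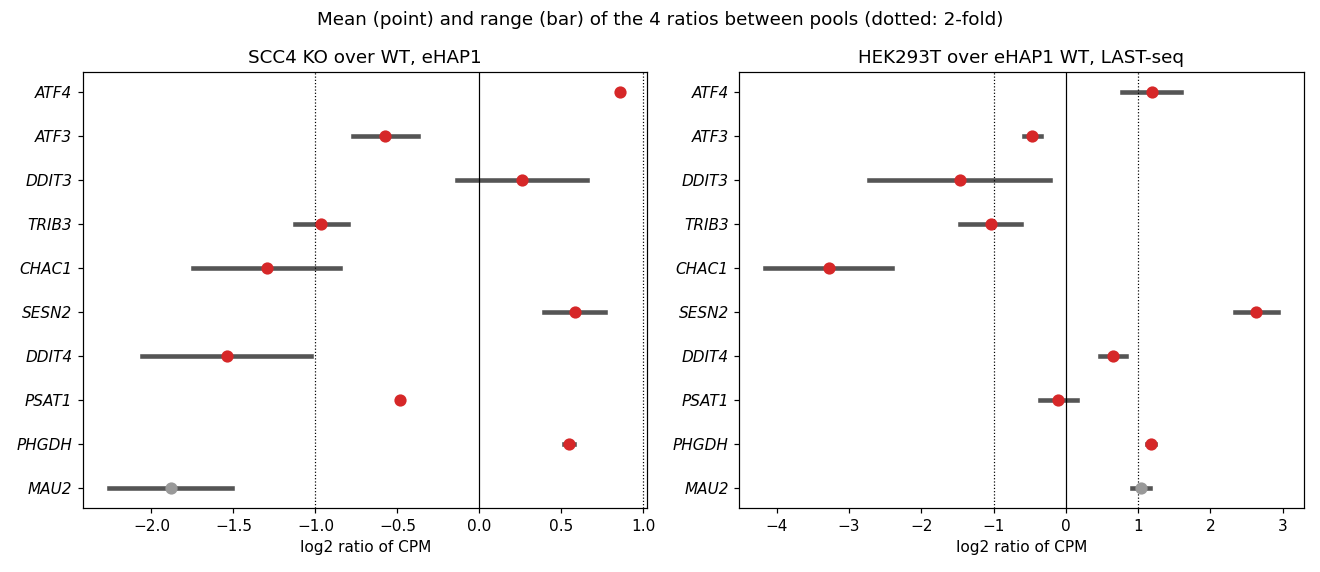
Log2 ratio of CPM (x axis) for the genes tested (y axis), with SCC4 KO over WT eHAP1 cells on the left and LAST-seq HEK293T cells over WT eHAP1 cells on the right. Points are means and bars the range of the 4 pairs of pools, MAU2 in grey is the targeted gene, and dotted lines mark 2-fold. DDIT4 lies past 2-fold over its whole bar on the left, and CHAC1, SESN2 and PHGDH do on the right.

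In single cells the genotypes overlapped for every gene of the set. For ATF4, the lowest, median and highest cell held 95.5, 174 and 339.6 CPM in WT batch 1 and 91.8, 184 and 369 in WT batch 2. The corresponding values were 121, 320.3 and 543 in KO batch 1 and 200.3, 325 and 603 in KO batch 2, so the KO median lay below the highest WT cell. For CHAC1, the median cell held 38.0 and 36.9 in WT and 17.5 and 7.21 in KO batches, and the highest cell 117 and 75.2 in WT and 88.8 and 50.3 in KO batches. CHAC1 also shows the skipped values: in WT batch 2, 10 cells held 0 UMIs and 10 held 1, none held 2 or 3, and 7 held 4. For PSAT1, the median cell held 400.5 and 414.5 in WT and 295.0 and 295.2 in KO batches.

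**Figure D3:**
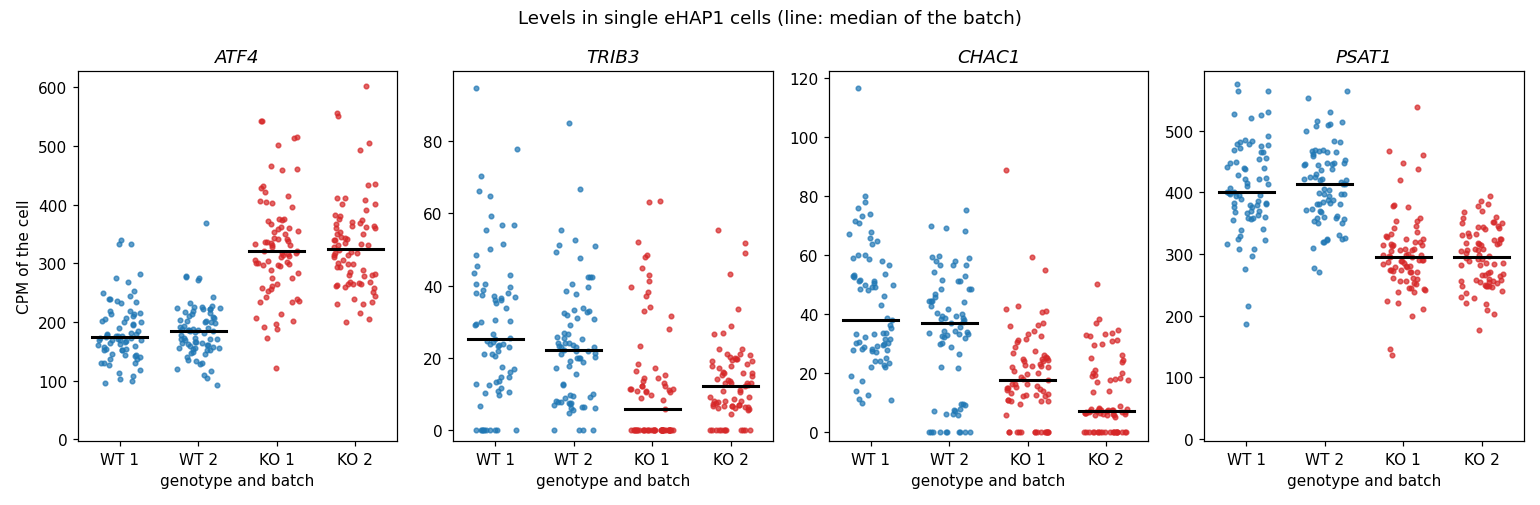
CPM of each cell (y axis) for ATF4, TRIB3, CHAC1 and PSAT1 in the 2 WT (blue) and 2 KO (red) batches of eHAP1 cells, with a black line at the median of each batch. The median of ATF4 was 174 and 184 in WT and 320.3 and 325 in KO batches, and the cells of both genotypes overlapped.

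The genes around the set were described with the same threshold. Of 18 genes upstream of ATF4 (the eIF2 kinases, eIF2, its exchange factor and regulators), all were tested in KO against WT, 1 was higher and none lower, with a median log2 ratio of -0.11. The gene that was higher was OMA1, the mitochondrial protease that starts the signal through DELE1, with 3.26 and 4.02 CPM in KO and 0.678 and 1.06 in WT batches, from 5 and 13 UMIs in WT. Of 28 other ATF4 targets, 25 were tested, 1 was higher and 1 lower, with a median of -0.30. ATF5, a related transcription factor, was higher in KO at 151 and 149.7 CPM against 59.7 and 62.5 in WT. ALDH1L2, a mitochondrial folate enzyme, was lower, with no UMI in KO cells and 2 and 110 UMIs in WT batches 1 and 2, so that call rests on WT batch 2. Of 17 genes of the ATF6 and XBP1 arms of the unfolded protein response, 16 were tested and 1 was higher, with a median of 0.27. That gene was PDIA6, a disulfide isomerase, at 16.0 and 15.8 CPM in KO and 3.66 and 3.98 in WT batches. The median over all genes tested was 0.05.

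HEK293T and WT eHAP1 cells, both by LAST-seq, differed most in CHAC1 and SESN2. The lines also differed in medium, sort gate, pool size and depth, and only the eHAP1 UMIs showed the marks of an adjustment, so these cannot be told apart from the line. Of the 9 genes tested, SESN2 and PHGDH were higher in HEK293T in all 4 pairs, beside 10.9% of 15913 genes, and CHAC1 was lower, beside 13.9%. CHAC1 stood at 6.32 and 1.99 CPM in HEK293T pools 1 and 2, from 9 and 3 UMIs, and was 5.27-fold to 17.9-fold lower than the 41.4 and 35.1 of WT eHAP1 cells. SESN2 stood at 15.4 and 19.9, from 22 and 30 UMIs, and was 5.05-fold to 7.64-fold higher. PHGDH stood at 187 and 197 and was 2.17-fold to 2.35-fold higher. ATF4 stood at 315 and 546 in the HEK293T pools, above WT eHAP1 cells by 1.72-fold to 3.03-fold, and its 2 HEK293T pools differed from each other by more than their counting intervals (287 to 346 and 509.8 to 585). Without HEK293T pool 1, ATF4 was also called higher, and without HEK293T pool 2, DDIT3 and TRIB3 were also called lower.

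None of the remaining members was called by the 2-fold rule. TRIB3 stood at 9.83 and 15.2 CPM in HEK293T cells, below the 27.9 and 23.9 of WT eHAP1 cells. DDIT3 stood at 2.11 and 7.95, from 3 and 12 UMIs, and ATF3 at 6.32 and 5.96, from 9 UMIs in each pool. Both lay below WT eHAP1 cells in all 4 pairs, and neither passed 2-fold in all of them. DDIT4 stood at 9.12 and 7.29, from 13 and 11 UMIs, above both WT batches by 1.39-fold to 1.78-fold. Its counting intervals overlapped in all 4 pairs. PSAT1 stood at 457 and 326, on either side of WT eHAP1 cells, and ASNS had no UMI in either line. By edgeR, 5 members had an adjusted p under 0.05 (ATF4 0.015, SESN2 0.013 and PHGDH 0.0026 higher, beside 11.2% of all genes; TRIB3 0.027 and CHAC1 0.0021 lower, beside 13.9%). TRIB3 was not called by DESeq2, by edgeR on total UMIs without scaling, or without either WT batch. SESN2 was not called without WT batch 1, and it was not tested when the minimum mean was raised to 1 UMI. When totals were scaled by the trimmed mean of M-values (TMM), the median log2 ratio of all genes moved by -0.21, PHGDH was no longer called, and 33.3% of called genes were higher in place of 44.0%.

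Of the 18 upstream genes, 2 were higher and 3 lower in HEK293T than in WT eHAP1 cells. The 4 with the largest ratios were OMA1 (14.7 and 8.61 CPM against 0.678 and 1.06), EIF2AK4, the kinase that senses amino acid shortage (14.7 and 4.64 against 42.2 and 40.3), EIF2AK1, the heme-sensing kinase (68.8 and 43.7 against 179 and 179), and EIF2B4, a subunit of the eIF2 exchange factor (60.4 and 49.0 against 21.6 and 15.7). Of the 25 other ATF4 targets tested, none was higher and 3 were lower. These were the amino acid transporters SLC6A9 (0.702 and 1.32 against 17.8 and 17.1) and SLC1A4 (1.40 and 2.65 against 23.2 and 17.5) and the proline synthesis enzyme PYCR1 (7.72 and 6.62 against 21.7 and 20.6). Of the 16 unfolded protein response genes tested, XBP1 was higher (129.8 and 163 against 59.3 and 55.1) and PDIA6 lower (1.40 and 0.662 against 3.66 and 3.98). The median log2 ratios of the 3 lists were 0.19, -0.08 and 0.25, beside 0.01 over all genes tested.

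The level of several members differed between the assays within the same line. Each assay had its own pools of cells, so assay and cells cannot be told apart. Between CEL-seq2 and LAST-seq pools of HEK293T cells, ATF3, ASNS and PHGDH were higher by CEL-seq2 in all 4 pairs, beside 25.3% of 19276 genes tested, and no member was lower, beside 4.16%. ASNS had 8 and 7 UMIs by CEL-seq2 and none by LAST-seq, at least 4.87-fold higher at the floor of 3 UMIs over both LAST-seq pools, a limit that was 2.51-fold without LAST-seq pool 1 and 2.37-fold without LAST-seq pool 2. PHGDH stood at 446 and 417 CPM by CEL-seq2 against 187 and 197, but under TMM scaling, where the median log2 ratio of all genes moved by -0.35 and 74.7% of called genes were higher in place of 85.9%, it was no longer called. PSAT1 went the other way, at 234 and 163 by CEL-seq2 against 457 and 326, without passing 2-fold in all pairs. ATF4 (616 and 510.3), DDIT3 (6.43 and 8.24) and TRIB3 (16.1 and 13.1) overlapped with their LAST-seq levels. For ATF4 this depended on its processed copies. With the UMIs of ATF4P1 to ATF4P4 added, ATF4 stood at 714 and 702 by CEL-seq2, above the 357 and 627 by LAST-seq. CHAC1 (6.43 and 9.62), SESN2 (41.8 and 24.0) and DDIT4 (9.65 and 14.4) lay above their LAST-seq pools in all 4 pairs, without passing 2-fold in all. Their nearest pools held 10 against 9 UMIs for CHAC1, 35 against 30 for SESN2 and 15 against 13 for DDIT4, with overlapping counting intervals. The median log2 ratio of all genes was itself 0.70, and the share of all genes above in all 4 pairs was not computed. The assays were compared by level only and share the LAST-seq pools with the comparison of lines above. Of the lists, 6 of 18 upstream genes, 6 of 26 other targets and 4 of 17 unfolded protein response genes were higher by CEL-seq2, and 1 other target was lower, with medians of 0.63, 0.18 and 0.28 beside 0.70 over all genes.

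ATF3 ranged widely between pools of the same line. It stood at 82.4 and 21.3 CPM in the CEL-seq2 pools of cells, at 62.7 in the CEL-seq2 lysate and at 47.6 in the LAST-seq lysate, against 6.32 and 5.96 in LAST-seq cells and 3.61 in 15-pg RNA. The sum over 11 immediate-early and dissociation genes, such as FOS and JUN, was also higher in CEL-seq2 cells and both lysates. That sum was 2004 and 346 CPM in the CEL-seq2 cells and 989 and 1093 in the CEL-seq2 and LAST-seq lysates. It was 112 and 160.3 in LAST-seq cells and 115 in 15-pg RNA. The single genes did not all follow. JUN stood at 737 and 246 in CEL-seq2 cells against 43.5 and 91.4 in LAST-seq cells. FOS stood at 313 and 3.43 against 35.1 and 23.8, and HSPA1B at 12.2 and 46.7 against 7.02 and 9.94. Of these 11 genes, 4 were at 0 in each LAST-seq pool of cells, 2 in the 15-pg RNA, and none in the other HEK293T pools. Their part in the ATF3 level was not tested. In eHAP1 cells the same sum was 546 and 543 in WT and 493 and 488 in KO batches. DDIT3 was also higher in the LAST-seq lysate, at 37.6 CPM from 30 UMIs, than in LAST-seq cells at 2.11 and 7.95, whereas TRIB3 was at 2.51 in that lysate, from 2 UMIs, against 9.83 and 15.2. The lysate and the RNA were 1 pool each, with no replicate.

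The levels in lysate and 15-pg RNA place the other members. ATF4 stood at 889 in the CEL-seq2 lysate, 650.3 in the LAST-seq lysate and 506 in 15-pg RNA, and PSAT1 at 209, 464 and 224. PHGDH stood at 379.6, 211 and 114, so its higher level by CEL-seq2 was also present in lysate. SESN2 stood at 39.0, 20.0 and 37.9, DDIT4 at 10.6, 21.3 and 18.0, and CHAC1 at 29.6, 5.01 and 12.6. ASNS was at 4.73 in the CEL-seq2 lysate, from 4 UMIs, and had no UMI in the LAST-seq lysate or RNA. There the floor of 3 UMIs lay at 3.76 and 2.71 CPM, and the exact 95% upper limit of a count of 0 at 4.62 and 3.33.

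The spread between cells was given as the squared coefficient of variation (CV) in excess of counting error, over genes whose mean reached 1 UMI per cell of the pool. PSAT1 and PHGDH varied little beyond counting error. In the 4 eHAP1 batches, the excess of PSAT1 lay between 0.0047 and 0.0057 and that of PHGDH between -0.012 and 0.0061, below the medians of all genes, which were 0.024 and 0.041 in WT and 0.054 and 0.031 in KO batches. ATF4 stood at 0.012 and 0.0084 in WT and at 0.026 and 0.028 in KO batches, likewise below each median. The medians were not matched to the level of these genes. The stress factors and effectors of low level had larger and less stable values. DDIT3 ranged from 0.072 in WT batch 1 to 0.83 in WT batch 2, and TRIB3 from 0.030 in WT batch 1 to 0.82 in KO batch 1. CHAC1 stood at -0.017 and 0.10 in WT and at 0.021 and 0.43 in KO batches. WT and KO values overlapped for DDIT3 and CHAC1. TRIB3 stood at 0.030 and 0.11 in WT and at 0.82 and 0.23 in KO batches, with counting SEs of 0.034 to 0.15. Its 0.82 came from a mean of 1.06 UMIs per cell, with no cell at 2 UMIs. The share of all genes whose WT and KO values did not overlap was not computed. The skipped counts enter these values. Of 26 values of members over the 4 batches, 12 lay above the median of all genes of the batch. Without the 2 cells of over 500000 UMIs, left out after seeing the data, DDIT3 in WT batch 2 stood at 0.51 in place of 0.83, TRIB3 at 0.21 in place of 0.11 and ATF3 at 0.49 in place of 0.28. ATF4 then stood at 0.019 in place of 0.0084 and PHGDH at 0.018 in place of 0.0061, beside a median of all genes of 0.055 in place of 0.041.

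**Figure D4:**
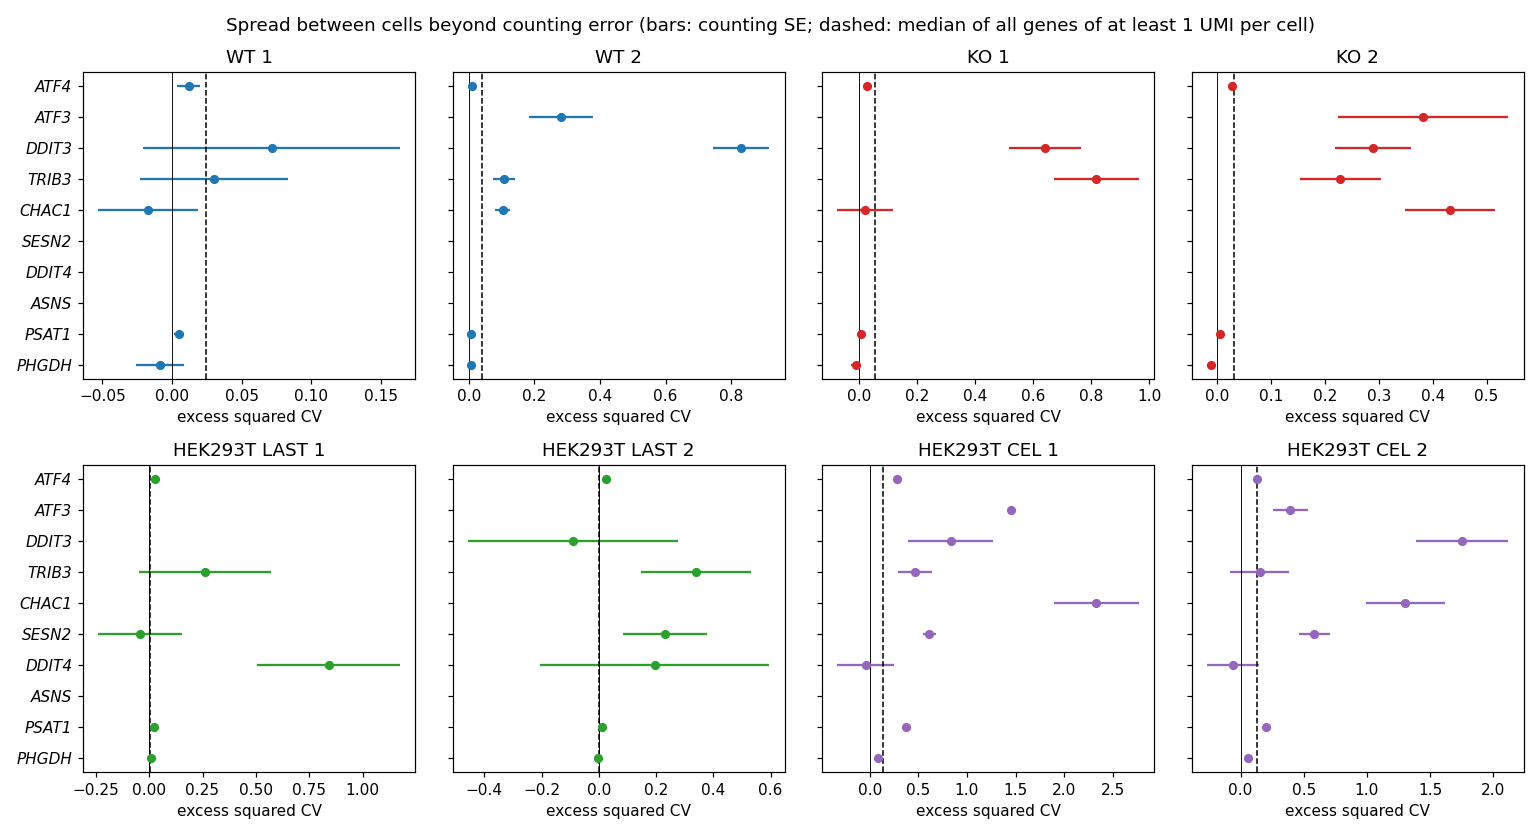
Excess squared CV between cells (x axis, scaled for each panel) of the members whose mean reached 1 UMI per cell, in the 4 eHAP1 batches and the 4 pools of HEK293T cells, with bars for the counting SE and a dashed line at the median of all such genes. PSAT1 and PHGDH sit near 0 in all eHAP1 batches, while DDIT3 ranges from 0.072 to 0.83.

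In HEK293T cells the excess of ATF4 and PSAT1 was larger in both CEL-seq2 pools than in both LAST-seq pools. DDIT4, at a mean of 1.1 to 2.1 UMIs, went the other way. It stood at -0.043 and -0.059 by CEL-seq2 and at 0.84 and 0.20 by LAST-seq. Assay and cells cannot be told apart here. By CEL-seq2 the excess of ATF4 was 0.28 and 0.13, that of ATF3 1.45 and 0.40 and that of PSAT1 0.37 and 0.20, beside medians of all genes of 0.13 in both pools. By LAST-seq ATF4 stood at 0.029 and 0.024, with counting SEs of 0.0097 and 0.0053, and PSAT1 at 0.022 and 0.013, beside medians of 0.0019 and 0.0022. Wells of lysate and of RNA hold no difference between cells, and there ATF4 stood at -4.1e-04 in lysate and 0.011 in RNA, with counting SEs of 0.0086 and 0.0079. All 5 members with enough UMIs in these 4 LAST-seq pools, ATF4, SESN2, DDIT4, PSAT1 and PHGDH, had larger values in both pools of cells than in lysate and RNA. With wells thinned to 50000 UMIs, none of the 4 members left did. No difference between cells and lysate is therefore read from these LAST-seq pools of 10 wells. In the CEL-seq2 lysate the excess was 0.022 for ATF4, 0.045 for ATF3 and 0.0030 for PSAT1, beside a median of 0.071. These values, and those of DDIT3, CHAC1 and SESN2, lay below both CEL-seq2 pools of cells. PHGDH stood at 0.072 in that lysate and at 0.082 and 0.060 in cells. That lysate was 1 pool, with a median well of 80630 UMIs against 166467.5 and 150127.5 in cells, and the difference was not tested.

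Across cells, no member pair that could be assessed stood above the range of gene pairs in general. Spearman's rho of the share of UMIs was computed within each batch for members whose mean reached 2 UMIs, which were ATF4, PSAT1 and PHGDH in all batches, TRIB3 and CHAC1 in the WT batches, and DDIT3 and TRIB3 in KO batch 2. ATF3, SESN2, DDIT4 and ASNS fell short of that mean in every batch. PSAT1 and PHGDH varied little beyond counting error, and TRIB3, CHAC1 and DDIT3 entered at a few UMIs per cell. A rho near 0 therefore cannot tell weak co-variation from none. The pairs share cells, depth and the adjustment, so rho is a description. In WT batches 1 and 2, the 10 pairs had medians of -0.032 and 0.0067 and ranges of -0.064 to 0.11 and -0.23 to 0.197. In KO batch 1 the 3 pairs ranged from -0.13 to 0.057, and in KO batch 2 the 10 pairs from -0.0996 to 0.17. All pairs of genes had medians between 5.9e-04 and 0.0046, and their 5th to 95th percentiles reached at least from -0.19 to 0.19. No member pair lay above the 95th percentile in any batch, and 2 pairs in WT batch 2 lay below the 5th, ATF4 with PSAT1 at -0.23 and TRIB3 with PSAT1 at -0.21. Neither pair was low in WT batch 1, where they stood at -0.049 and -0.050.

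**Figure D5:**
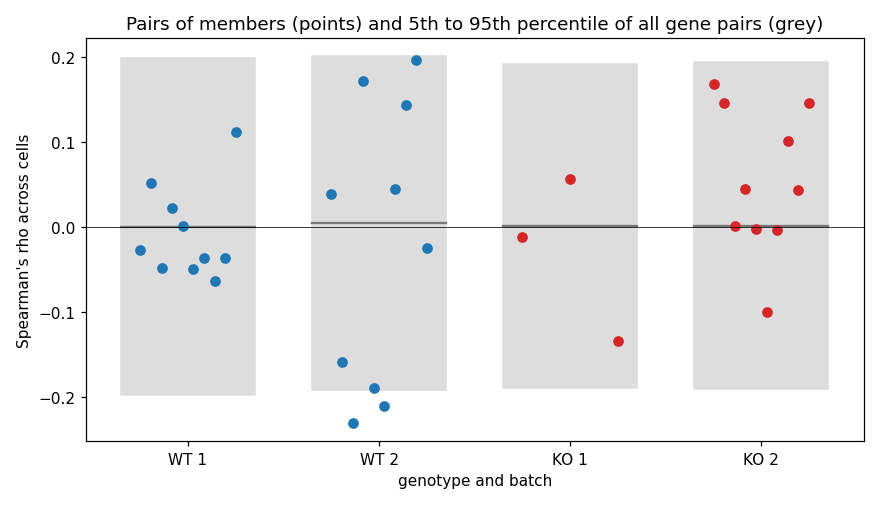
Spearman's rho across cells (y axis) of each pair of members (points) in the 4 eHAP1 batches, with the 5th to 95th percentile of all gene pairs in grey and their median as a line. The points lie inside the grey band except for 2 pairs in WT batch 2, at -0.23 and -0.21.

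A score was formed from the 3 members whose mean reached 2 UMIs in all batches, ATF4, PSAT1 and PHGDH, and 4904 other genes were ranked by the lowest of their 4 rho with it. Among the most alike were POLDIP3, with a lowest rho of 0.19, ATF4P4 with 0.14, MKNK1 with 0.12 and TAGLN2 with 0.10. ATF4P4 is a processed copy of ATF4 and can take reads of it. These values were among the highest of many, over 73 to 77 cells a batch, and are small.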

How the data were processed

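The authors counted UMIs in exons with zUMIs from LAST-seq and CEL-seq2 reads aligned to GRCh38, after base calling with bcl2fastq 2.20 per the labels, and deposited whole-number counts per gene and well. The methods name ComBat-seq for the eHAP1 cells. A total of 9 tables of UMIs were used. The 6 tables of sequencing reads, which include all SMART-seq wells, were not used here. Spike-in rows, up to 3.86% of UMIs, were left out of totals. Ensembl identifiers were matched to symbols for 99.5% of genes. The 10 members, the gene lists and the rules were chosen with earlier results of these data known.

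UMIs were summed over the wells of a pool and given as CPM of its total. Ratios used 0.5 UMI added to each sum, genes with a mean of 0.1 UMI per cell or more, and a threshold of 2-fold in all 4 pairs of pools. edgeR 4.0.16 (R 4.3.3) fitted the quasi-likelihood test on pool sums with TMM, with DESeq2 1.42.0 as an alternative. Excess spread was the summed squared deviation from the value expected at the depth of a well, minus that value, over the summed squares of the expected values. Its counting SE assumes Poisson counts. Intervals are exact at 95% and, like floors of 3 UMIs, cover counting error only. Named were all 10 members, the targeted gene and, of each list, at most the 4 largest changes past 2-fold in every pair. The scripts for ratios, edgeR, spread and rho were tested on simulated data. Other steps ran in Python 3.11.15 (pandas 2.3.3, numpy 2.4.6, scipy 1.17.1). A gene ranked among the most alike is not reported here.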

Additional observations from a re-analysis of the deposited data

How the results depend on the processing

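Between SCC4 KO and WT cells, the count of members past 2-fold was 1, and 1 to 3 when a batch was left out, with 4 (ATF4, TRIB3, CHAC1 and DDIT4) at 1.5-fold and 2 with batches of the same number only, an alternative chosen after seeing the data. Between HEK293T and WT eHAP1 cells it was 3, with 3 to 5 when a pool was left out and 5 (ATF4, TRIB3, CHAC1, SESN2 and PHGDH) at 1.5-fold. Between CEL-seq2 and LAST-seq it was 3, and 3 to 4 with a pool left out. edgeR called 4 to 5 members in KO against WT and 3 to 6 in HEK293T against WT with a pool left out; the lone batch left in an arm was assumed to vary like the others. With the batch number as a replicate block, edgeR called the 5 members ATF4, TRIB3, CHAC1, PSAT1 and PHGDH, as without it, and 4957 genes in all against 4430. Whether batches of a number share a day is not stated, and the batch differences of WT and KO cells correlated at 0.077 over 2683 genes. The median rho of member pairs was 0.32 when UMIs were not divided by the total of the cell, against 8.5e-04 when they were. Thinning LAST-seq wells of HEK293T to 50000 UMIs left 0 members with a larger excess in cells than in lysate and RNA, against 5. The cause was not tested. All other alternatives, with 0 or 1 UMI added, TMM totals, cells under 50000 UMIs or the 2 WT cells of over 500000 UMIs left out, DESeq2 and other filters among them, kept each count within 1.5-fold. Of 298 ratios of single members under an alternative, 287 moved by less than the spread between pools, 11 moved by more, and 0 of those past 2-fold reversed. Depth limits CHAC1, DDIT3, ATF3 and ASNS in HEK293T cells, for each of which at least 1 LAST-seq pool held 9 or fewer UMIs.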
